A study of Mus musculus with 2 samples.

Results

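The transcripts of 50 genes that act in G2 and mitosis were followed through erythroid differentiation in single cells of the mouse fetal liver. They were chosen by gene symbol, as 50 of the 27998 genes in the expression matrix, of which 17768 had at least 1 count in any cell. All 50 were found and all 50 had more than the 50 counts used here as a minimum, with totals from 750 for *Gtse1* to 47589 for *Cks2*. The cells came from fetal livers of 7 pooled C57BL/6 embryos at e13.5, and no transgene or treatment is named for them. Ter119+ cells were depleted magnetically, and the Ter119- fraction was then mixed with the same number of Ter119+ cells. The proportions of stages therefore do not describe the fetal liver. The experiment is CITE-seq, in which antibodies with a DNA barcode are counted beside the mRNA of the same cell, and consists of 1 cDNA library and 1 antibody library of the same 7863 cells. With 1 library of pooled livers there is no replicate error, so no p-value is given. Every interval in brackets is a 95% interval. For levels and ratios it covers counting error only, and for shares of cells it is a binomial interval over the number of cells.

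In a dividing cell, cyclin A and cyclin B activate the kinase CDK1 and so start mitosis. Further kinases, motors and kinetochore proteins then build the spindle, and the anaphase-promoting complex ends mitosis by marking cyclin B and securin for destruction. The mRNAs of these proteins accumulate in G2 and are low in G1 and in cells that have left the cycle. Fetal erythroid progenitors divide rapidly, and their last divisions take place while haemoglobin accumulates, before the nucleus is expelled.

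Stages were set from 2 of the antibodies, Ter119, which binds a protein of maturing red cells and carried the barcode GAGGCGATTGAT, and CD71, the transferrin receptor, which carried CGAAGAAGGAGT. Among cells with low counts of 5 lineage antibodies, 1510 were S0-low (low Ter119 and low CD71), 1054 S0-medium (intermediate CD71) and 612 S1 (high CD71). Cells with intermediate Ter119 and high CD71 were S2, with 1299 cells, and cells with high Ter119 were split by falling CD71 into S3, with 838 cells, and S4/S5, with 898. The borders lay at 24.7 and 88.9 Ter119 counts, at 234 and 762 CD71 counts for the early stages, and at 744 CD71 counts between S3 and S4/S5. A further 213 cells with intermediate Ter119 and less CD71 belonged to no stage.

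The summed markers of early progenitors, such as *Cd34* and *Kit*, were highest in S0-low at 856 CPM (counts per 1000000 UMIs of the cell) and lay between 42.1 and 114 CPM elsewhere, while those of late erythroid cells, such as *Alas2* and *Hemgn*, had 364 CPM there and 10816 CPM in S3. The hepatocyte markers reached 6942 CPM in S0-low against 444 to 767 CPM in the other stages, and 15.0% of the S0-low cells lay in clusters with hepatocyte, megakaryocyte, myeloid or macrophage markers, against at most 0.490% in any other stage. The macrophage markers went the other way, with 203 CPM at S0-low and 706 CPM at S4/S5, and their part in the levels below was not tested. Median depth was 6146 unique molecular identifiers (UMIs, counted transcripts) per cell at S0-low, 10282 at S0-medium, 10151.5 at S1, 6021 at S2, 4534.5 at S3 and 3949 at S4/S5. Globin transcripts made up 1.05% of the UMIs at S0-low, 1.39% at S0-medium, 2.80% at S1, 13.1% at S2, 37.6% at S3 and 64.0% at S4/S5. A CPM is a share of all UMIs of a cell, so levels are given with all UMIs. Sums and some genes are also given with the globin UMIs left out. Where no such value is given for a gene, its direction can still depend on the denominator.

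Promoters of this gene class are known for 2 short sequences, TTTGAA or its variant TTTAAA, read by the LIN54 subunit of the DREAM and MYBL2 complexes, and CCAAT, bound by the trimeric factor NF-Y. The RefSeq promoter table for GRCm38.p6, the patch release of the mm10 build the files use, gives windows from 250 bases before to 50 bases after the start. It matched 42 of the 50 genes with 46 windows, and did not match *Aurkb*, *Ccna2*, *Cdc25c*, *Cdca2*, *Dlgap5*, *Kif20a*, *Smc4* and *Tpx2*. The 250 bases before the start are shown for the kinase *Cdk1* and its cyclins *Ccnb1* and *Ccnb2*, for *Ube2c* and *Nusap1*, which kept high levels latest, and for *Cks1b*, whose level was highest in the first stage. This choice was made after the levels were seen. Capitals mark TTTGAA and its variant TTTAAA, and CCAAT, on either strand (TTCAAA and ATTGG on the other strand), and each sequence reads 5′ to 3′ along the gene.
*Cdk1*, chr10:69352913-69353162, minus strand: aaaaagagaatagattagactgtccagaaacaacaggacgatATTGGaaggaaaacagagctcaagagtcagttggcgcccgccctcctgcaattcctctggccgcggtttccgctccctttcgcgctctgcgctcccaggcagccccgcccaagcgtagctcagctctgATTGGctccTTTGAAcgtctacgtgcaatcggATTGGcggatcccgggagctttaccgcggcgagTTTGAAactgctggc
*Ccnb1*, chr13:100786487-100786736, minus strand: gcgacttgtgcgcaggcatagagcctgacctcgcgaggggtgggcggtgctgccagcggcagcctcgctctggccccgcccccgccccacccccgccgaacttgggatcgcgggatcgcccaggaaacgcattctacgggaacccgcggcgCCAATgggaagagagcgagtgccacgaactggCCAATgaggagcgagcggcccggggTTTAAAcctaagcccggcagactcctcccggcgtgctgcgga
*Ccnb2*, chr9:70421555-70421804, minus strand: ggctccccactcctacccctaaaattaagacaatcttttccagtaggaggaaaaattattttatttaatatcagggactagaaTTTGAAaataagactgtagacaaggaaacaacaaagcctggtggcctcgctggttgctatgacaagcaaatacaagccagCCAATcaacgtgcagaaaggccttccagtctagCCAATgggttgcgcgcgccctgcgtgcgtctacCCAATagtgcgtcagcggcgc
*Ube2c*, chr2:164769679-164769928, plus strand: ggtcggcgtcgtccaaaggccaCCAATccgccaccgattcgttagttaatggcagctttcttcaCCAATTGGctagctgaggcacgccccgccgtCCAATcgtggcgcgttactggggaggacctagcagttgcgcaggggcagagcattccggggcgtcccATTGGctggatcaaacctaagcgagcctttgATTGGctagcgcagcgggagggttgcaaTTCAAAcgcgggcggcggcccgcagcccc
*Nusap1*, chr2:119618048-119618297, plus strand: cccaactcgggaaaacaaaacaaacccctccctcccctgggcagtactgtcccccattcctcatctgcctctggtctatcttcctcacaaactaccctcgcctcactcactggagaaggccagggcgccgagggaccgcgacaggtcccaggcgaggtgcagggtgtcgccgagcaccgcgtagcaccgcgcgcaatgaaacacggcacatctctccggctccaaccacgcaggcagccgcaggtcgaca
*Cks1b*, chr3:89418292-89418541, minus strand: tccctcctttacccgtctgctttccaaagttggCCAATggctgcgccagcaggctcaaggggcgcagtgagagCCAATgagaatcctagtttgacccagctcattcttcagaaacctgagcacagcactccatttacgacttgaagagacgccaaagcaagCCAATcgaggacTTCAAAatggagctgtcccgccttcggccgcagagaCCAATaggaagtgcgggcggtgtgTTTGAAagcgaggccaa

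*Cdk1* held TTTGAA 15 bases before the start with 3 CCAAT motifs upstream, and *Ube2c* held it 29 bases before the start with 6 CCAAT motifs, of which 2 overlap on opposite strands. *Ccnb1* had no TTTGAA but TTTAAA 42 bases before the start, and *Nusap1* had none of the 3 motifs. Over the 300-base windows, TTTGAA stood in 35 of 46 (76.1%), against 17.9% of all 32851 windows and 12.0% of the 11172 windows of genes with at least 50 UMIs in this library. Within 50 bases of the start on either side the shares were 65.2%, 4.94% and 3.16%. TTTAAA stood in 26.1% of the windows of the set and in 13.2% of all windows. CCAAT stood in 38 windows (82.6%) against 37.4% of all and 38.1% of expressed genes, and 31 windows (67.4%) had both TTTGAA and CCAAT, against 6.95% of all. Among 60 windows of 53 of the 66 other G2 and mitosis genes listed here, 48.3% held TTTGAA and 68.3% CCAAT. Among 26 windows of 23 of the 30 S-phase genes, 11.5% held TTTGAA and 65.4% CCAAT. Genes such as *Bub3*, *Ect2* and *Prc1* have more than 1 window, so windows are not independent. A match is only a match of letters in this window.

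The 50 genes summed to 7110 CPM (7054–7166) at S0-low, 8234 (8169–8300) at S0-medium and 8988 (8902–9074) at S1. The sum was highest in S2 at 10658 CPM (10584–10733), close to that in S3 at 10168 CPM (10070–10267), and lowest in S4/S5 at 4844 CPM (4773–4916). The intervals of neighbouring stages do not overlap, but they leave out variation between cells. The 10th to 90th percentile of cells ran from 5088 to 17133 CPM in S2 and from 1742 to 20641 CPM in S3. Whether the sums of S2 and S3 differ beyond that variation was not tested. With globin UMIs left out the order changes at the end, since the sums were 7217, 8473, 9441, 13385, 17419 and 12371 CPM from S0-low to S4/S5, highest in S3 and with S4/S5 above S1. Without *Ube2c* and *Nusap1* S4/S5 was below S1 in these sums, as given below. Per cell, with no division by depth, the means were 56.2, 84.3, 91.8, 77.5, 57.9 and 21.7 UMIs, highest in S1. CPM gives the share of these transcripts among the UMIs of a cell. UMIs per cell mix that share with the depth of the cell, so fewer of them alone do not show a smaller share.

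**Figure D1:**
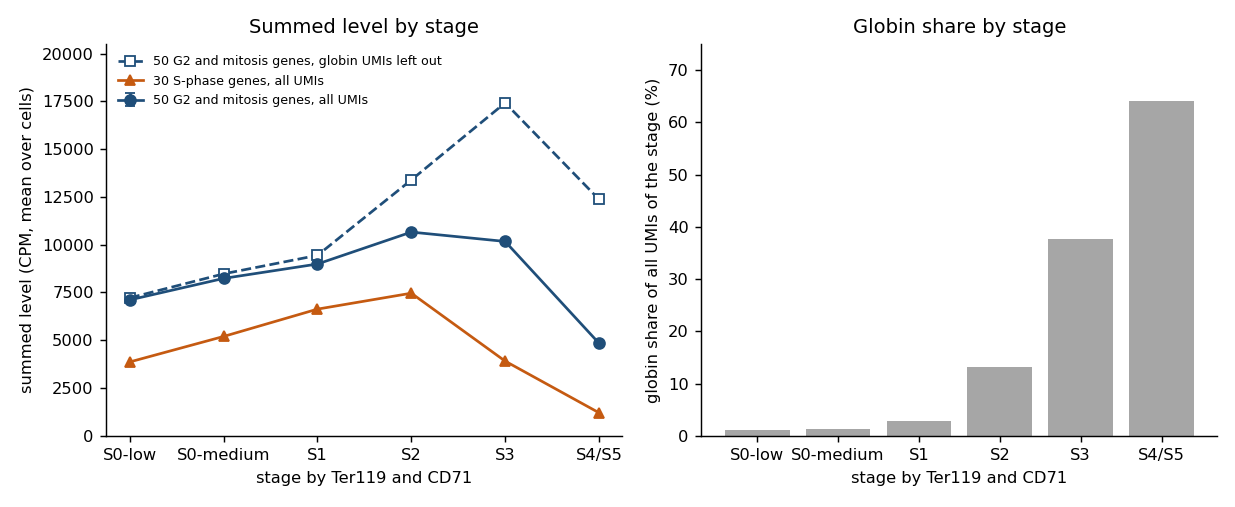
Left, summed level in CPM (mean over cells) by stage for the 50 genes with all UMIs (filled circles, bars are 95% counting intervals), the same without globin UMIs (open squares) and 30 S-phase genes (triangles). Right, globin share of all UMIs of each stage in percent. The filled circles are highest in S2 at 10658 CPM and lowest in S4/S5 at 4844 CPM, while the S-phase genes are already at 3908 CPM in S3.

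A gene counted as higher or lower between neighbouring stages when its level differed by at least 1.5-fold, and the same was counted over the 10394 genes with at least 50 UMIs in the staged cells. Each pair of neighbouring comparisons shares a stage. From S0-low to S0-medium the summed level was 1.16 times as high (1.15–1.17). *Cdc25b*, *Aurka* and *Mki67* were higher by the fold used, 3 of 50 genes against 6.47% of all genes, and 0 were lower against 23.1% of all. The median ratio was 1.16 for the set and 0.941 for all genes. Leaving out the named non-erythroid clusters, which are in S0-low almost alone, the sum was 1.13 times as high. Clusters without a name stayed in, among them 1 of 59 cells with *Dcn* and *Col3a1* among its top genes, so other non-erythroid cells may remain.

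From S0-medium to S1 the sum was 1.09 times as high (1.08–1.11). *Cdc25b*, a phosphatase that activates CDK1, was the 1 gene higher by the fold used, against 6.03% of all genes, and 0 were lower against 15% of all. The median ratio was 1.13, against 0.915 for all genes.

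From S1 to S2 the sum was 1.19 times as high (1.17–1.20), and 10 genes were higher by the fold used against 7.26% of all genes, while 0 were lower against 42.1% of all. The 10 were *Cdc25b*, *Nusap1*, *Ube2c*, *Ect2*, *Dlgap5*, *Prc1*, *Kif23*, *Ccnb1*, *Cenpf* and *Mki67*. The largest ratios were 2.71 for *Cdc25b* (2.34–3.15), 2.36 for *Nusap1* (2.12–2.63) and 1.99 for *Ube2c* (1.89–2.09). Without globin UMIs, 16 genes were higher against 11.7% of all genes and 0 lower against 30.5%, and the sum was 1.42 times as high. As UMIs per cell the direction was the opposite, with a ratio of 0.844.

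From S2 to S3 the sum was 0.954 times as high (0.943–0.965) with all UMIs and 1.30 times as high without globin UMIs, so its direction depends on the denominator. With all UMIs 1 gene, *Ube2c*, was higher by the fold used against 7.95% of all genes, and 2, *Cdc20* and *Ncapd2*, were lower against 59.4% of all. The median ratio of the set was 0.870, against 0.601 for all genes. Without globin UMIs 6 genes were higher against 16.9% of all, and 0 were lower against 28.7%. Stages set on log10 of the antibody counts gave a ratio of 1.08 with all UMIs, so the direction of this step also depends on the borders.

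From S3 to S4/S5 the sum fell to 0.476 times its level (0.468–0.485), and 48 of the 50 genes were lower by the fold used against 62% of all genes, with 0 higher against 8.37%. The exceptions were *Nusap1*, with a ratio of 0.866, and *Ube2c*, with 0.723. The median ratio was 0.385, below that of all genes at 0.566. Without globin UMIs 39 genes were lower against 25.8% of all and 0 were higher against 22.3%, with a median ratio of 0.557 against 0.934.

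**Figure D2:**
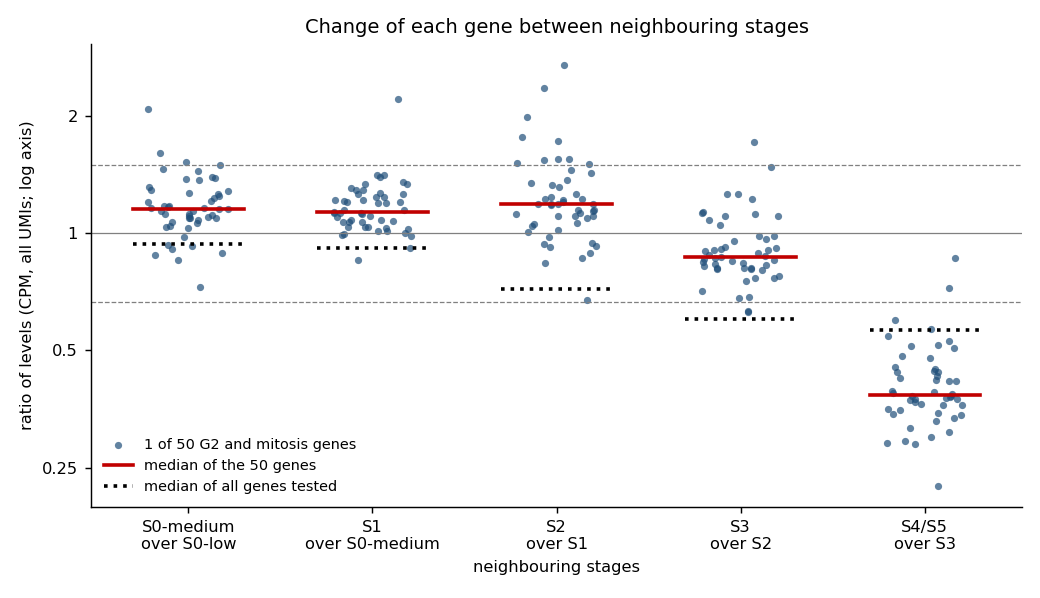
Ratio of the level of each of the 50 genes between neighbouring stages (CPM with all UMIs, log axis), with the median of the set (solid line), the median of all genes tested (dotted line) and the 1.5-fold limits (dashed). The median of the set lies above that of all genes in the first 4 comparisons, and below it in S4/S5 over S3, at 0.385 against 0.566.

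The stage at which a gene was highest differed from that of most genes in the library. Of the 50 genes, 29 were highest in S2 against 7.08% of all genes, and 11 in S3 against 4.97%. Another 5 were highest in S0-low against 52% of all genes, 2 in S0-medium against 21.7%, 3 in S1 against 12.4% and 0 in S4/S5 against 1.74%. For 27 of the 50 the highest stage was not told apart from at least 1 other stage, most often S3 from S2, since the interval of their ratio included 1. Without globin UMIs 42 genes were highest in S3 against 10.4% of all genes, and 5 in S2 against 7.50%. In S4/S5 2 were highest (*Ube2c* and *Nusap1*) against 7.92% of all, and in S0-low 1, *Cks1b*, against 46.4%.

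**Figure D3:**
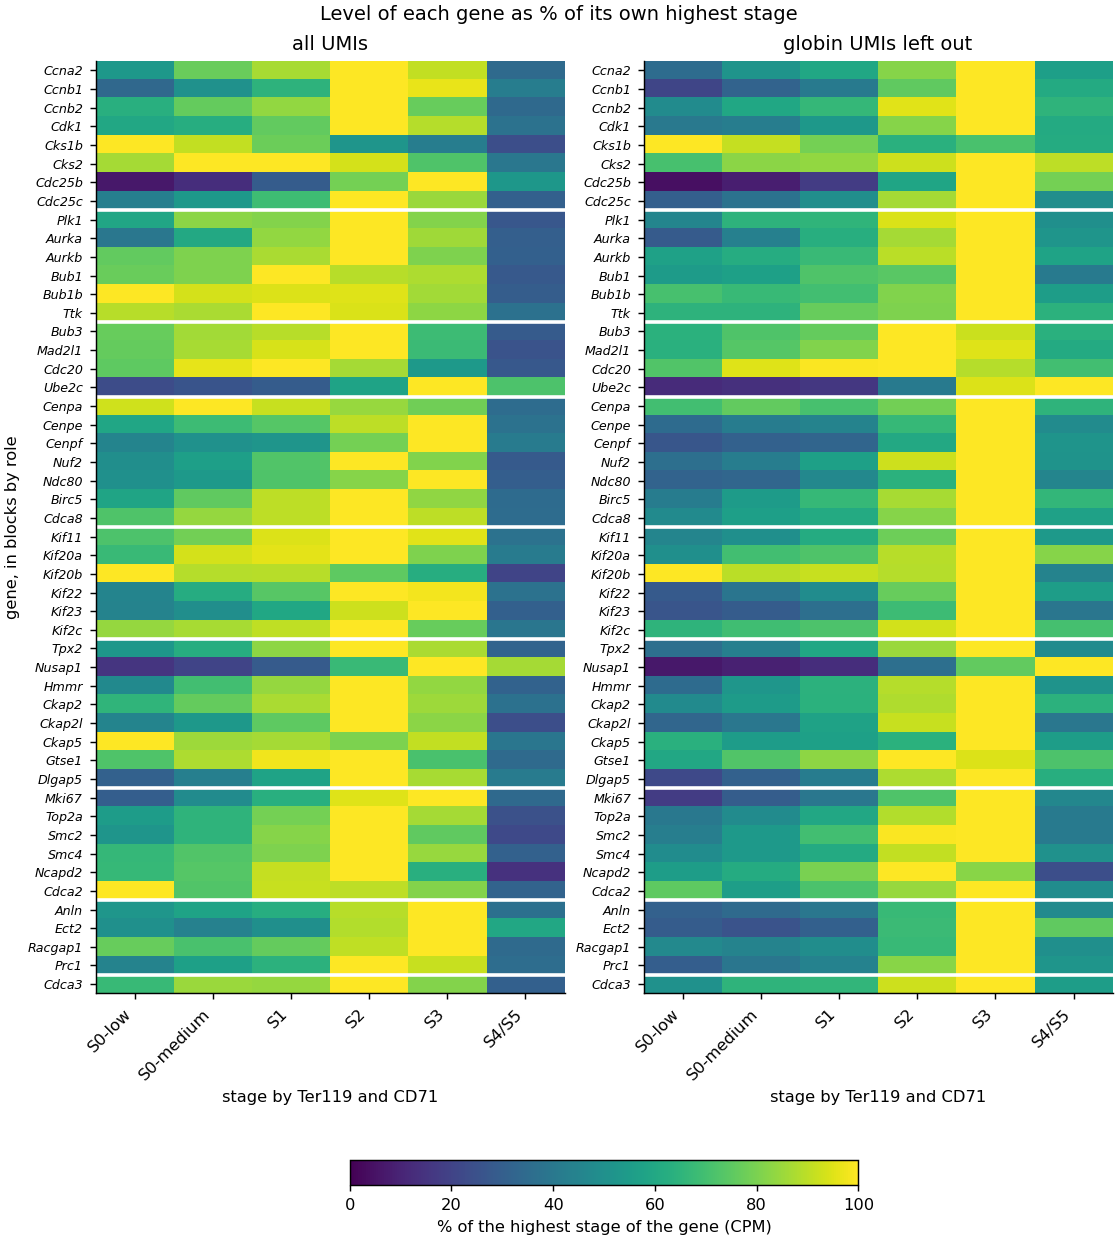
Level of each gene in each stage as a percent of its own highest stage (CPM), with all UMIs on the left and without globin UMIs on the right, in blocks by role separated by white lines. Most genes are brightest in S2 on the left and in S3 on the right, while *Cks1b* is brightest in S0-low and *Ube2c* and *Nusap1* stay bright in S4/S5.

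The levels that follow are means over cells in CPM with all UMIs. *Bub1b*, *Kif20b*, *Ckap5* and *Cdca2*, given below as highest in S0-low, were highest in S3 without globin UMIs. Counts were of transcript 3′ ends and do not grow with transcript length. The counting interval of a level above 300 CPM reached at most 5.93% to either side, that of a level above 100 CPM at most 11%, and that of the lowest levels up to 48.7%.

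Among the cyclins, CDK1 and its activators, *Ccnb1*, the main mitotic cyclin, had levels of 135 at S0-low, 203 at S0-medium, 258 at S1, 400 at S2, 386 at S3 and 169 at S4/S5. *Cdk1*, the kinase it activates, had 143 at S0-low, 149 at S0-medium, 181 at S1, 239 at S2, 212 at S3 and 90.2 at S4/S5. *Ccnb1* thus differed by 2.95-fold between its lowest and highest stage, and *Cdk1* peaked in the same stage. *Ccnb2*, the second B-type cyclin, had 212 at S0-low, 257 at S0-medium, 282 at S1, 336 at S2, 259 at S3 and 115 at S4/S5.

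*Cks2* and *Cks1b* encode small proteins that bind CDK1 complexes and were the members with the most UMIs. *Cks2* had levels of 960 at S0-low, 1109 at S0-medium, 1107 at S1, 1039 at S2, 805 at S3 and 439 at S4/S5, with S0-medium and S1 not told apart by their intervals. Without globin UMIs *Cks2* had 974 at S0-low, 1136 at S0-medium, 1151 at S1, 1273 at S2, 1376 at S3 and 1236 at S4/S5. Its direction after S1 thus depends on the denominator. *Cks1b* had 907 at S0-low, 824 at S0-medium, 703 at S1, 474 at S2, 386 at S3 and 219 at S4/S5, lower at each later stage with all UMIs. Without globin UMIs it had 917 at S0-low, 837 at S0-medium, 726 at S1, 581 at S2, 655 at S3 and 565 at S4/S5, so S3 was above S2. Its S3 level was 0.468 times that in S0-medium (0.443–0.495), the lowest such ratio of the set, and 0.783 times without globin UMIs. The CKS1B protein also serves the ubiquitin ligase that destroys the CDK inhibitor p27 before S phase. *Cdc25b* was the opposite, with 12.1 at S0-low, 25.3 at S0-medium, 56 at S1, 152 at S2, 191 at S3 and 101 at S4/S5. It was 7.57 times as high in S3 as in S0-medium (6.26–9.21), the largest ratio of the set.

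Among the mitotic kinases, *Aurka*, which acts at the spindle poles, had levels of 68.7 at S0-low, 105 at S0-medium, 146 at S1, 174 at S2, 149 at S3 and 52.9 at S4/S5. *Aurkb*, the kinase of the chromosomal passenger complex, had 99.2 at S0-low, 106 at S0-medium, 114 at S1, 131 at S2, 106 at S3 and 40.3 at S4/S5. The S0-medium level was 1.53 times the S0-low level for *Aurka* (1.37–1.70) and 1.07 times for *Aurkb*. *Bub1b*, the checkpoint protein BUBR1, was highest in S0-low, with 37.1 at S0-low, 34.7 at S0-medium, 35.1 at S1, 35.3 at S2, 32 at S3 and 11 at S4/S5, and its intervals from S0-low to S3 overlapped.

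Among the spindle checkpoint and anaphase-promoting complex partners, *Ube2c* encodes the ubiquitin-conjugating enzyme that works with the anaphase-promoting complex. Its levels were 362 at S0-low, 403 at S0-medium, 454 at S1, 904 at S2, 1555 at S3 and 1123 at S4/S5. The S3 level was 3.86 times that in S0-medium (3.69–4.03), and S4/S5 was still above S2. Without globin UMIs the levels were 371 at S0-low, 421 at S0-medium, 487 at S1, 1226 at S2, 2846 at S3 and 3005 at S4/S5, highest in S4/S5. *Cdc20*, which activates the same complex in early mitosis, went the other way after S1, with 160 at S0-low, 205 at S0-medium, 213 at S1, 184 at S2, 115 at S3 and 58.4 at S4/S5. Its S3 level was 0.562 times that in S0-medium (0.508–0.622) with all UMIs and 0.937 times without globin UMIs. *Bub3*, a checkpoint protein, had 213 at S0-low, 239 at S0-medium, 247 at S1, 277 at S2, 190 at S3 and 79.1 at S4/S5. The pair of partners of the anaphase-promoting complex thus differed in S3, with *Ube2c* 1.72 times (1.66–1.78) and *Cdc20* 0.627 times (0.566–0.693) as high as in S2. The ratio of *Cdc20* was close to the median of all genes for this step, 0.601. Without globin UMIs the ratios were 2.32 for *Ube2c* and 0.889 for *Cdc20*, against a median of 0.846 for all genes.

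Among centromere and kinetochore genes, *Birc5*, encoding survivin of the chromosomal passenger complex, had levels of 417 at S0-low, 540 at S0-medium, 644 at S1, 715 at S2, 596 at S3 and 251 at S4/S5. *Cenpa*, the histone H3 variant of centromeres, was highest in S0-medium, with 425 at S0-low, 459 at S0-medium, 421 at S1, 389 at S2, 359 at S3 and 163 at S4/S5. Its S3 level was 0.781 times that in S0-medium with all UMIs. Without globin UMIs it was 1.31 times as high, and *Cenpa* was then highest in S3. *Birc5* was 1.55 times as high in S1 as in S0-low (ratio of levels), while *Cenpa* was 0.990 times as high. *Cenpf*, *Cenpe* and *Ndc80* were highest in S3, and the S2 level of *Cenpf* was 1.52 times that in S1. For *Cenpe* and *Ndc80* the interval of the ratio of S3 to S2 included 1.

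Among the kinesin motors, *Kif22*, which moves chromosome arms, had levels of 42.2 at S0-low, 57.8 at S0-medium, 69.2 at S1, 93.4 at S2, 92 at S3 and 35.2 at S4/S5. *Kif11*, the motor that separates the spindle poles, had 46.7 at S0-low, 51.1 at S0-medium, 61.4 at S1, 64.9 at S2, 62.1 at S3 and 24.4 at S4/S5. *Kif20b*, a motor of cytokinesis, was highest in S0-low, with 56.2 at S0-low, 50.1 at S0-medium, 50.3 at S1, 42.2 at S2, 35.1 at S3 and 11.6 at S4/S5. *Kif20b* was not told apart there from S0-medium and S1. Its S3 level was 0.702 times that in S0-medium (0.577–0.850), and 1.12 times without globin UMIs. The motor genes as a group summed to at most 332 CPM, in S2.

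Among genes of spindle assembly and microtubule binding, *Nusap1*, which bundles spindle microtubules, had levels of 57.5 at S0-low, 75.8 at S0-medium, 107 at S1, 253 at S2, 373 at S3 and 323 at S4/S5. It was 4.92 times as high in S3 as in S0-medium (4.43–5.47), and S4/S5 was above S2. *Hmmr*, a spindle pole protein, had 77.4 at S0-low, 113 at S0-medium, 137 at S1, 163 at S2, 136 at S3 and 51.3 at S4/S5. *Ckap5*, a microtubule polymerase, had 42.9 at S0-low, 36.7 at S0-medium, 37.1 at S1, 34.4 at S2, 39 at S3 and 16.8 at S4/S5, highest in S0-low and not told apart there from S1 and S3. The level of the group in S4/S5, 496 CPM, was for the most part that of *Nusap1*.

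Among genes of chromosome structure, the condensin subunits *Smc4* and *Smc2* had the highest mean levels. *Smc4* had 345 at S0-low, 379 at S0-medium, 419 at S1, 519 at S2, 439 at S3 and 160 at S4/S5. *Smc2* had 273 at S0-low, 340 at S0-medium, 429 at S1, 524 at S2, 395 at S3 and 116 at S4/S5. Both peaked in S2, and *Smc2* fell to 0.293 times its S3 level in S4/S5. *Cdca2*, a phosphatase-targeting protein of chromatin, was highest in S0-low and not told apart there from S1 and S2, with 42.3 at S0-low, 30.8 at S0-medium, 38.8 at S1, 38.1 at S2, 34.4 at S3 and 13.4 at S4/S5. *Mki67*, the proliferation marker that coats mitotic chromosomes, had an S0-medium level 1.61 times that at S0-low (1.49–1.74) and reached 440 CPM in S3.

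Among cytokinesis genes, *Prc1*, which organizes the central spindle, had levels of 57.4 at S0-low, 72.8 at S0-medium, 82.2 at S1, 128 at S2, 117 at S3 and 45.4 at S4/S5. *Racgap1*, of the centralspindlin complex, had 59 at S0-low, 54.9 at S0-medium, 58.6 at S1, 69.5 at S2, 76.9 at S3 and 26.6 at S4/S5. *Prc1* had its highest level in S2 and *Racgap1* in S3, and the interval of the ratio of these stages included 1 for both. The role left over was held by *Cdca3*, a trigger of mitotic entry, with 250 at S0-low, 315 at S0-medium, 311 at S1, 370 at S2, 302 at S3 and 113 at S4/S5.

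*Ube2c* and *Nusap1* together made up 5.90% of the summed level in S0-low, 10.8% in S2, 19.0% in S3 and 29.9% in S4/S5. The other 48 genes summed to 6691, 7756, 8426, 9502, 8240 and 3397 CPM from S0-low to S4/S5. Without this pair the sum in S3 was 0.867 times that in S2 with all UMIs, and 1.17 times without globin UMIs. The pair was taken out after its levels were seen.

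Within the cells with low Ter119, the summed level followed CD71 in 10 bins of 294 or 295 cells, with the named non-erythroid clusters left out. It was 6411 CPM (6275–6549) in the bin with a median of 16 CD71 counts, 8045 CPM in that with 245.5 and 9230 CPM (9108–9354) in that with 1527. The eighth bin, at 8213 CPM, lay below the seventh, at 8385 CPM. The S-phase genes covered a wider span over the same bins, from 3538 to 7131 CPM, and *Ube2c* a narrower one, from 350.4 to 465 CPM. Median depth was 4413 UMIs in the first bin and between 6182.5 and 10958 in the others, and its part in the difference was not tested.

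Within the cells with intermediate or high Ter119, the summed level lay between 9972 and 10634 CPM in the first 5 of 10 bins by Ter119, and was 8405 CPM in the sixth and 6304 CPM (6182–6428) in the last. The S-phase genes were already lower in the fifth bin, at 4947 CPM against 7934 in the second. *Ube2c* went from 632 CPM in the first bin to 1403 in the fifth and lay between 1256 and 1383 CPM in the last 5. Without globin UMIs *Ube2c* had 747 CPM in the first bin, 2432 in the fifth, 2349 in the sixth and 3513 in the last. Without globin UMIs the summed level was 11128 CPM in the first bin, 16726 in the fifth and 15097 in the last. Along falling CD71 in the cells with high Ter119, it was 11710 CPM (11503–11920) where the median CD71 count was 2698 and 2536 CPM (2413–2663) where it was 61, or 17625 and 9390 CPM without globin UMIs.

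**Figure D4:**
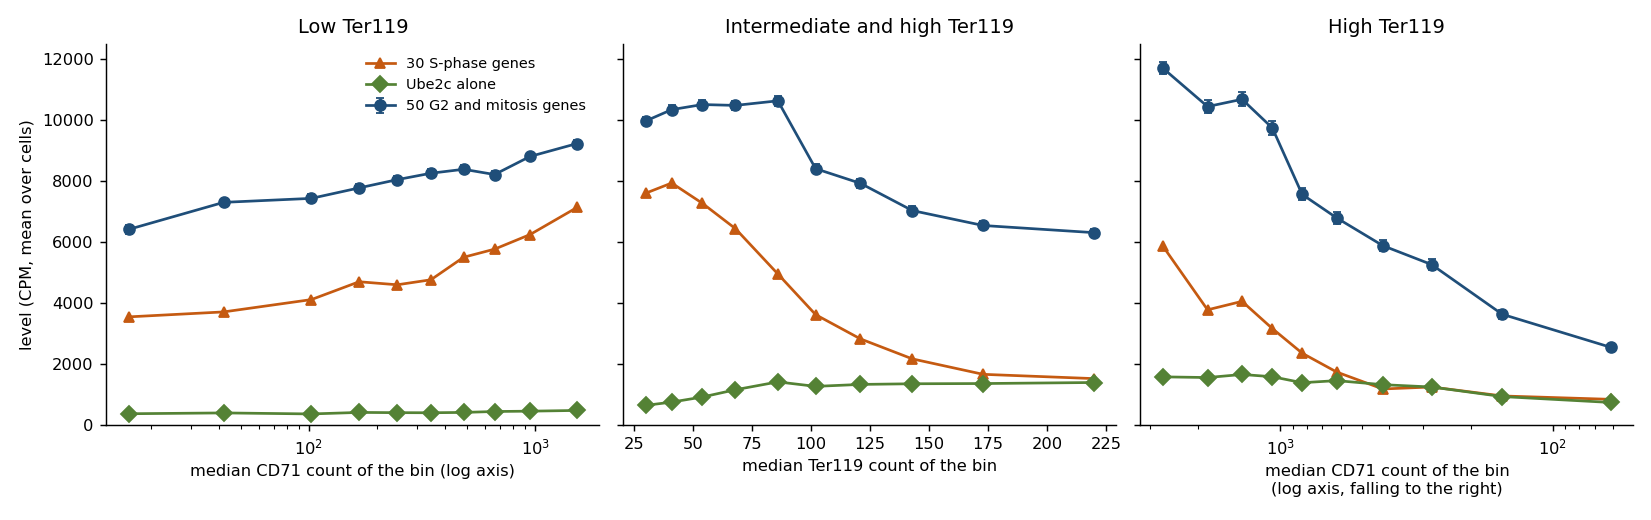
Level in CPM (mean over cells, all UMIs) in 10 bins of cells along CD71 in cells with low Ter119 (left, log axis), along Ter119 in cells with intermediate or high Ter119 (middle) and along falling CD71 in cells with high Ter119 (right, log axis). Circles are the 50 genes with 95% counting intervals, triangles the 30 S-phase genes and diamonds *Ube2c* alone; in the middle panel the circles stay at 9972 CPM or more over the first 5 bins while the triangles go from 7601 to 4947 CPM.

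For single cells, each cell was thinned at random to 2000 UMIs, which left no cell out, and the UMIs of the 50 genes were counted. The median was 14 at S0-low, 16 at S0-medium, 17 at S1, 20 at S2, 18 at S3 and 5 at S4/S5. Thinning to 1000 non-globin UMIs instead left out 238 of the 898 S4/S5 cells. The median was then 7 at S0-low, 8 at S0-medium, 9 at S1, 12 at S2, 13 at S3 and 8 at S4/S5. S3 was then above S2, and S4/S5 above S0-low, so both orders depend on the way of thinning. It changed the denominator and also the cells, and their parts were not tested apart. S4/S5 was below S3 either way. At 2000 UMIs the 10th to 90th percentile ran from 11 to 26 in S1, from 9 to 35 in S2, from 3 to 42 in S3 and from 2 to 31 in S4/S5. The variance over the mean was 2.29 in S1, 5.19 in S2, 11.1 in S3 and 17.5 in S4/S5, so the late stages held cells with very different counts.

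The 75th percentile over all staged cells was 22 UMIs. It was exceeded by 9.87% of S0-low cells (8.41–11.5), 12.2% of S0-medium cells (10.3–14.4), 21.4% of S1 cells (18.2–24.9), 40.3% of S2 cells (37.7–43.1), 42.0% of S3 cells (38.6–45.4) and 14.0% of S4/S5 cells (11.8–16.5). With all UMIs the intervals of the S2 and S3 shares overlap, while with globin UMIs left out the shares were further apart, at 37.7% and 49.5%. In S4/S5, 57.8% of cells had 0 to 5 UMIs, and in S3 21.4%, against 0.490% in S1. The cells above the limit held 70.1% of the UMIs of the set in S3 and 57.5% in S4/S5. A cell above the limit is in a range of a count and is not a cell type, and between 1 and 42 cells of a stage lay on the limit itself. Thinned to 1000 non-globin UMIs, which left out 238 of the 898 S4/S5 cells, 37.7% of S2, 49.5% of S3 and 23.9% of S4/S5 cells passed the corresponding limit, and without thinning 46.3%, 45.3% and 14.4%.

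**Figure D5:**
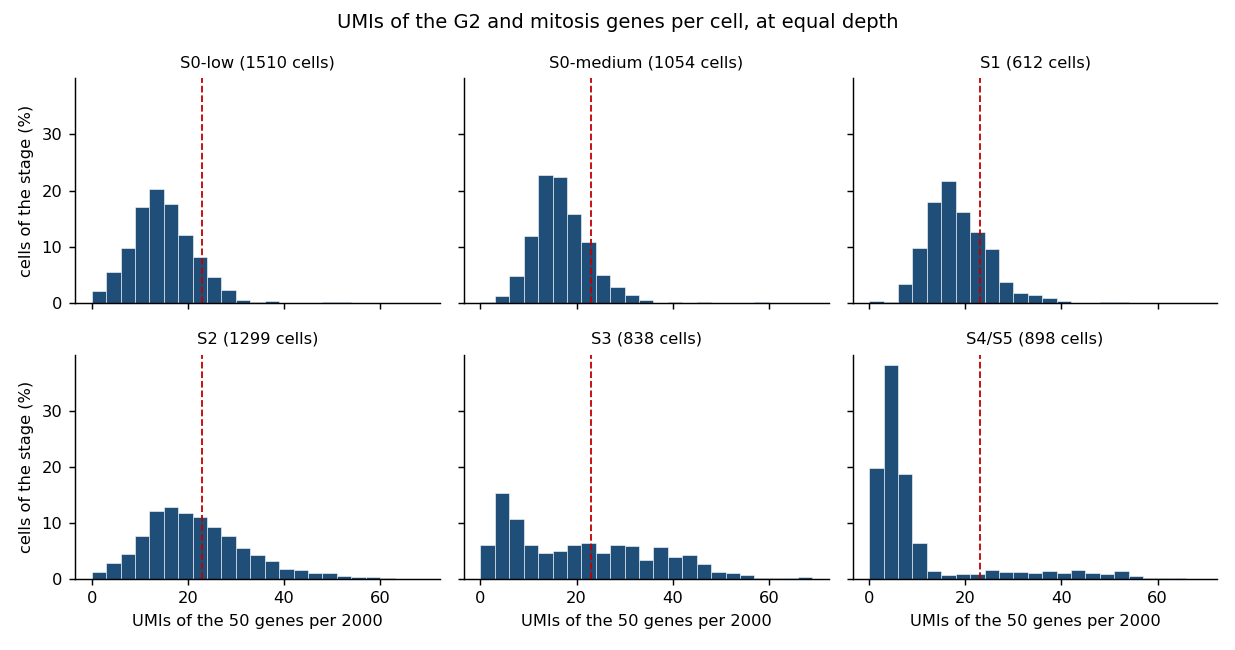
Share of cells of each stage (percent) by UMIs of the 50 genes per 2000 UMIs of the cell, in bins of 3, with the 75th percentile of all staged cells as a dashed line. S0-low to S2 form a single broad peak, whereas S3 is spread from 0 to more than 50 UMIs. S3 has 15.3% of cells at 3 to 5 UMIs, 4.65% at 12 to 14 and 6.44% at 21 to 23. S4/S5 has a peak at 3 to 5 UMIs, 0.668% of cells at 15 to 17 and 1.56% at 24 to 26. In S4/S5 14.0% of cells lie above the line. Globin UMIs are part of the UMIs of the cell here.

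The cells above 22 UMIs were compared with the rest of their stage in other readouts. The antibody counts are not part of this count, but Ter119 and CD71 also set the stages. A difference in CD71 within S3 or S4/S5 thus overlaps with the fall along CD71 given above. The globin share and the S-phase UMIs share the 2000 UMIs of the count, and the genes detected include the 50. In S4/S5, the 126 cells above had a median of 443 CD71 counts against 266.5 in the 772 others, 66.5 CD44 counts against 39, and 154 against 156 Ter119 counts. Their median globin share was 52.1% against 70.0%, they had 979.5 genes detected against 602.5, and they had a mean of 5.35 S-phase UMIs per 2000 against 1.91. The same direction held in S3, with 1490 against 1349 CD71 counts, 90.5 against 66.5 CD44 counts, 38.9% against 51.0% globin and 8.66 against 7.16 S-phase UMIs. A lower share of globin leaves more of the 2000 UMIs for all other genes, and its part in these counts was not tested apart from the thinning without globin given above.

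In S0-medium the cells differed in cKit, the stem cell factor receptor, as they did in S1, with 71 counts above the limit against 101. The cKit medians were close in S0-low, at 258 against 256, and in S2, at 23 against 23. The 129 S0-medium cells above the limit had a median of 114 cKit counts against 236 in the 925 others. Their CD44 counts were lower, 117 against 189, as in S1, with 184 against 213. In S0-low and S2 the CD44 counts above the limit were higher, 185 against 148 and 123 against 119, as in S3 and S4/S5. These S0-medium cells had 462 against 422 CD71 counts and 1.39% against 0.936% globin. They also had a median of 7046 against 10507 UMIs before thinning, and the part of depth was not tested. In S2, by contrast with S4/S5, the cells above had more globin than the others, 14.6% against 10.5%, and fewer S-phase UMIs, 13.4 against 15.9.

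Across cells of a stage at 2000 UMIs, the Pearson correlation of each gene with the sum of the other 49 had a median of 0.13 at S0-low, 0.10 at S0-medium, 0.11 at S1, 0.21 at S2, 0.30 at S3 and 0.39 at S4/S5. It is given as a description over 612 to 1510 cells of 1 library, and in sparse counts it depends on the level of the gene. Globin UMIs are part of the 2000, so cells with less globin have more UMIs left for all other genes. The part of globin in these correlations was not tested. Genes outside the set also had high values in S4/S5, with 0.69 for *Hemgn* and 0.64 for *H3f3a*, against 0.23 and 0.20 in S0-medium. *Malat1* had 0.34 against 0.36, and *Fry* -0.01 against 0.24. *Ube2c* had the highest value in each stage, from 0.30 in S1 to 0.74 in S4/S5, and *Cenpf* reached 0.70 and *Ccnb1* 0.65 in S4/S5. At least 0.2 was reached by 6 genes in S1 and by 44 in S4/S5. The correlation of the set with the S-phase sum was -0.090 in S1, -0.11 in S2, 0.17 in S3 and 0.38 in S4/S5.

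Of the 10344 other genes with at least 50 UMIs, those among the 10 with the highest correlation with the summed UMIs over the 1054 S0-medium cells included *Malat1* (0.36, with 0.06 in S0-low and 0.24 in S2), *Arl6ip1* (0.24, with 0.21 and 0.41), *Fry* (0.24, with -0.01 and 0.00), *Prdx2* (0.24, with 0.15 and 0.05), *Gm16845* (0.23, with -0.03 and -0.03), *Hemgn* (0.23, with 0.15 and 0.28), *Spc25* (0.22, with 0.14 and 0.30), *Rragd* (0.21, with 0.01 in S2) and *H3f3a* (0.20, with 0.06 and 0.22). *Arl6ip1* and *Spc25* are in the list of other G2 and mitosis genes. *Hemgn* and *Prdx2* are genes of red cell maturation. *Fry*, *Gm16845* and *Rragd* had 61 to 214 UMIs in all stages, so their values rest on few counts.

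The list of 66 other G2 and mitosis genes, such as *Kif4*, *Spc24* and *Tacc3*, was read over the same steps. From S1 to S2, 12 were higher and 3 lower by the fold used, against 7.26% and 42.1% of all genes, with a median ratio of 1.18. From S2 to S3, 3 were higher and 18 lower, against 7.95% and 59.4% of all genes, with a median of 0.791. Without globin UMIs this step had 10 higher and 7 lower, against 16.9% and 28.7%, with a median of 1.06, so its direction depends on the denominator. From S3 to S4/S5, 59 were lower and 2 higher, against 62% and 8.37% of all genes, with a median of 0.401, or 43 lower and 4 higher without globin UMIs, against 25.8% and 22.3%, with a median of 0.595. The 2 higher with all UMIs were *Fam64a*, at 1.73 CPM in S3 and 3.54 in S4/S5, and *Cep55*, at 0.0794 and 0.523 CPM. Their ratios rest on few counts. The 3 with the highest mean level were *Hmgb2*, a chromatin protein, at 3085 CPM in S1 and 824 in S4/S5, *Tubb4b*, a β-tubulin, at 853 in S2 and 293 in S4/S5, and *Arl6ip1*, at 437 CPM in S3 and 235 in S4/S5.

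Of 13 regulators of this gene class, 12 were lower by the fold used from S3 to S4/S5 and 0 were higher, against 62% and 8.37% of all genes, with a median ratio of 0.419. Without globin UMIs 7 were lower against 25.8% of all, with a median of 0.655. From S1 to S2, 2 were higher and 0 lower, against 7.26% and 42.1%, with a median ratio of 0.956, which turned to 1.13 without globin UMIs. From S2 to S3, 0 were higher and 5 lower, against 7.95% and 59.4%, with a median of 0.717, or 0.947 without globin UMIs. *E2f4*, the E2F of the DREAM complex, had 538 CPM in S1 and 162 in S4/S5. *Rbbp4*, a subunit shared by MuvB and chromatin complexes, had 325 CPM in S3 and 209 in S4/S5, and *Nfyb*, a subunit of NF-Y, had 94.1 in S2 and 48.3 CPM in S4/S5.

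The 30 S-phase genes, such as *Mcm2* and *Pcna* of DNA replication, parted from the set between S2 and S3. They summed to 3864 CPM at S0-low, 5198 at S0-medium, 6628 at S1, 7461 at S2, 3908 at S3 and 1206 at S4/S5. From S2 to S3, 28 of the 30 were lower by the fold used against 59.4% of all genes, and 0 higher against 7.95%, with a median ratio of 0.450. Without globin UMIs 21 were lower against 28.7% of all, with a median of 0.578. The summed G2 and mitosis level was 1.84 times the S-phase level in S0-low, 1.58 times in S0-medium and 1.36 times in S1. It was 1.43 times the S-phase level in S2, 2.60 times in S3 and 4.02 times in S4/S5. Both sums share the denominator of each cell. From S3 to S4/S5 without globin UMIs, the median ratio was 0.557 for the set and 0.587 for the S-phase genes.

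Clusters named by the markers of other cell types gave summed levels of 7248 CPM (7113–7384) in 273 myeloid-like cells, 6694 CPM (6538–6852) in 146 megakaryocyte-like cells, 5414 CPM (5305–5524) in 189 hepatocyte-like cells and 4653 CPM (4467–4844) in 82 macrophage-like cells. Of these cells 91, 28, 119 and 3 were also counted in a stage, nearly all in S0-low, so the clusters and the stages are not separate sets. The share of cells above 22 UMIs at equal depth was 13.6% (9.73–18.2), 17.8% (12.0–24.99), 1.59% (0.329–4.57) and 6.10% (2.01–13.7) in the same order. *Ube2c* had 297 to 417 CPM and *Nusap1* 56.3 to 105 CPM in these 4 types, against 1555 and 373 CPM in S3 cells. *Cdc25b* had 4.80 to 21.5 CPM there, against 191 CPM in S3.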

How the data were processed

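The authors mapped the reads of the 10x 3′ library to mm10 with Cell Ranger and deposited raw UMI counts per gene and cell. The antibody counts per cell were deposited raw, as made with CITE-seq-Count. All 7863 cells are in both libraries, with 2510 to 38047 UMIs per cell (median 5707), and that depth sets the counting intervals, which cover counting error only.

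The limits on cells were 300 to 5000 genes and up to 9% of UMIs from mitochondrial genes, which removed 508 cells. Scrublet's procedure, run with 6% expected doublets, called 128 cells, and 7244 cells were left. The lineage limit was 95.8 summed counts of 5 antibodies, the median plus 2 scaled median absolute deviations on a log scale, and left 6424 cells. Antibody counts were scaled by centered log ratio across cells, and classes were set by k-means, since the gate positions are not given in the sources used here. Ratios were read from mean CPM over cells, with Poisson and Clopper-Pearson intervals on effective counts. They were tested on simulated Poisson counts with the same profile for all cells of a stage. The simulation left out variation between cells other than depth, so it cannot show whether the intervals cover it. Shares of cells had exact binomial intervals over the number of cells, which hold no replicate error. Free RNA was not estimated. Clusters came from scanpy 1.11.5 (16 principal components, 30 neighbours, Leiden resolution 0.8) and were named where 3 markers were among the top 10 genes by fold.

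The 50 genes, the other lists and the rules were chosen with earlier results of these data known. Values in each stage are given for the 2 members with the highest mean level in each role (1 where the role has 1), the 3 highest and 3 lowest ratios of S3 over S0-medium, and members whose highest stage was more than 1 stage from that of the sum, and other genes are named after their values were seen. A gene among those most correlated with the set is not reported here. Python 3.11.15, numpy 2.4.6, scipy 1.17.1 and pandas 2.3.3 were used, with random seed 7. Alternatives changed the antibody scale, classes, border cells, filters, level and denominator.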

Additional observations from a re-analysis of the deposited data

How the results depend on the processing

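Of 2500 ratios of single genes (50 genes, 5 comparisons, 10 settings), 2037 stayed within the main counting interval and 463 left it. Of those past 1.5-fold 0 changed direction, and changes of direction among smaller ratios were not counted. From S2 to S3, 38 of the 50 ratios were below 1 with all UMIs. Their median was 0.870 with all UMIs and 1.17 without globin UMIs over the 50 genes. Globin UMIs left out gave sums of 1.17, 1.11, 1.42, 1.30 and 0.710 times the stage before from S0-medium to S4/S5, with the fourth reversed. In S2 16 genes were then higher against 11.7% of all genes. In S3 6 were higher against 16.9% of all and 0 lower against 28.7%. The count of genes highest in S2 became 5 (7.50% of all genes) and in S3 42 (10.4%), a comparison chosen after seeing the data, and 8 and 4 as UMIs per cell. For UMIs per cell and the settings that follow, the shares over all genes were not counted. Their counts of genes therefore show only how the counts move, and are not results about the set. UMIs per cell gave sums of 1.5 in S0-medium (22 genes higher), 0.844 in S2, which is reversed (2 higher, 5 lower), 0.747 in S3 (0 higher, 21 lower) and 0.374 in S4/S5. Stages on log10 antibody counts, which moved S0-low to 576 and S3 to 1940 cells, gave 1.13 in S0-medium (1 gene lower), 1.15 in S2 (6 higher), 1.08 in S3, which is reversed (6 higher), and 0.444 in S4/S5. A Gaussian mixture gave 1.22 in S2 and 0.977 in S3 (2 higher), with 6 higher and 1 lower in S0-medium and 2 higher in S1. Pooled CPM gave 1.12 (1 higher), 1.21 in S2 and 0.991 in S3 (2 higher, 1 lower). Without border cells S3 had 2 genes higher and the last sum was 0.449. With no lineage limit S3 had 1 lower and the last sum was 0.485. With no quality limits the sums were 1.18 in S0-medium and 0.939 in S3, and without the named non-erythroid clusters 1.13 in S0-medium. At 2-fold, 1 gene was higher in S0-medium, 2 in S2, and 0 were higher and 0 lower in S3. Thinned to 1000 non-globin UMIs, 5.85% of S0-low, 8.84% of S0-medium, 14.4% of S1, 37.7% of S2, 49.5% of S3 and 23.9% of S4/S5 cells passed the limit, and without thinning 46.3% of S2. The cause was not tested beyond what the denominators show by construction. No paired analysis was possible because there is 1 library of each kind. Depth limits the genes under 100 CPM, whose intervals reached up to 48.7% to either side.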

Other observations

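The 213 cells with intermediate Ter119 and CD71 below that of S2, which belong to no stage, had a summed G2 and mitosis level of 8893 CPM (8696–9095), with a median of 3734 UMIs per cell and 29.3% globin.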
